A study of Homo sapiens with 6 samples.

Results

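The genes examined here were 37 regulators and targets of the hypoxia-inducible factors (HIFs): 3 HIF subunits, 5 genes of their oxygen-dependent control and 29 hypoxia-induced genes that do not encode glycolytic enzymes. They were taken by symbol from the table of gene counts, where each of the 37 symbols named exactly 1 of the 58870 genes. Counts came from WM164, an established human melanoma cell line grown in RPMI with fetal bovine serum, in 6 libraries: 3 from cells overexpressing GFP as the control and 3 labelled as overexpressing T-MGM. T-MGM is a tethered dimer in which the melanocyte isoform of MITF, the lineage transcription factor of melanocytes, is joined by a flexible linker to MAFG, a small MAF protein of the bZIP family. By the study's methods the dimer was carried by a lentiviral vector with an EF1α promoter, which is constitutive, and transduced cells were drug-selected. Nothing in the sources used here says that the 3 libraries of a group came from separate cultures, and p-values then measure only the spread between these samples, which may be technical. The oxygen level of the cultures was not given in the sources used here, and no library was labelled as hypoxic.

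HIFs are heterodimers of an oxygen-sensitive α subunit, such as HIF1A or EPAS1, and the stable partner ARNT. With oxygen present, prolyl hydroxylases of the EGLN family mark the α subunit for ubiquitination by the VHL complex, and the asparaginyl hydroxylase HIF1AN blocks its transactivation domain; most of this control acts on protein, which RNA counts do not measure. When oxygen falls, the dimer binds short sites with the core ACGTG or GCGTG and raises genes of angiogenesis, acid balance, mitophagy, collagen modification and stress signalling. The core ACGTG is also part of CACGTG, an E-box that MITF and other bHLH proteins bind, and in melanoma cells MITF is known to act on HIF1A transcription.

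Total counts were 35057239 to 38738065 in GFP libraries and 44577774 to 59250663 in libraries labelled T-MGM, a deeper set. MAFG, which the construct holds, had a log2 fold change of -0.06 (adjusted p = 0.236). MITF had one of only 0.08 (adjusted p = 4.8e-07), and its mean TPM was lower, at 138 in GFP and 133 in libraries labelled T-MGM. Neither gene therefore checks the label T-MGM, and all directions below rest on it. All 7 melanocytic markers were present, with 2198 counts or more in each library, but their summed level was 1144 to 1168 TPM in GFP and 972 to 1009 TPM in libraries labelled T-MGM. In counts 4 of the 7 fell (log2 fold change -2.49 for DCT, -0.68 for MLANA, -0.35 for TYR and -0.21 for S100B), and 3 were slightly higher. Keratinocyte and endothelial markers other than KRT10 and PECAM1 had at most 6 counts. Among immune markers, PTPRC and CD3E had at most 2 counts, CD68 was higher (log2 0.45, adjusted p = 8.75e-08) and LYZ lower (-1.32, adjusted p = 7.83e-05). The summed level of 5 fibroblast markers was 3.81 to 4.83 TPM in GFP and 5.34 to 6.69 TPM in libraries labelled T-MGM, most of it from LUM. The part of any of these markers in the results was not tested. In such bulk samples, fewer cells of a type and less RNA per cell cannot be told apart. Values below are normalized counts, that is, counts divided by the size factor of the library, and log2 fold changes are those of libraries labelled T-MGM over GFP with their standard error (SE); a gene passed at a DESeq2 adjusted p of at most 0.05, corrected over all genes tested.

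Of the 37 genes, 36 received an adjusted p, and 22 were higher and 4 lower in the libraries labelled T-MGM; STC2, with at most 3 counts in any library, received none. Across all 19135 genes tested, 38.4% passed, with 19.2% higher and 19.2% lower. These shares include genes with few counts and were not matched to the 37 genes. With at least 10 counts in 3 libraries required, 43.2% of genes tested passed and 21.5% were higher. The 22 higher genes were all among the 29 targets except HIF1A, while 3 of the 4 lower genes (EPAS1, ARNT and EGLN1) belonged to the subunits and their control, and the remaining one was MXI1. The median log2 fold change of the 36 genes was 0.43, against 0.00 for all genes tested. A fold change over 2 in addition was reached by 5 higher genes and by no lower one, where 4.63% of all genes tested did so, 3.26% higher and 1.36% lower. The 2 groups were without overlap in normalized counts for 23 genes on the higher side and 4 on the lower, compared with 46.8% of all genes tested (23.4% on either side); the count on the higher side includes VHL, which did not pass.

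**Figure D1:**
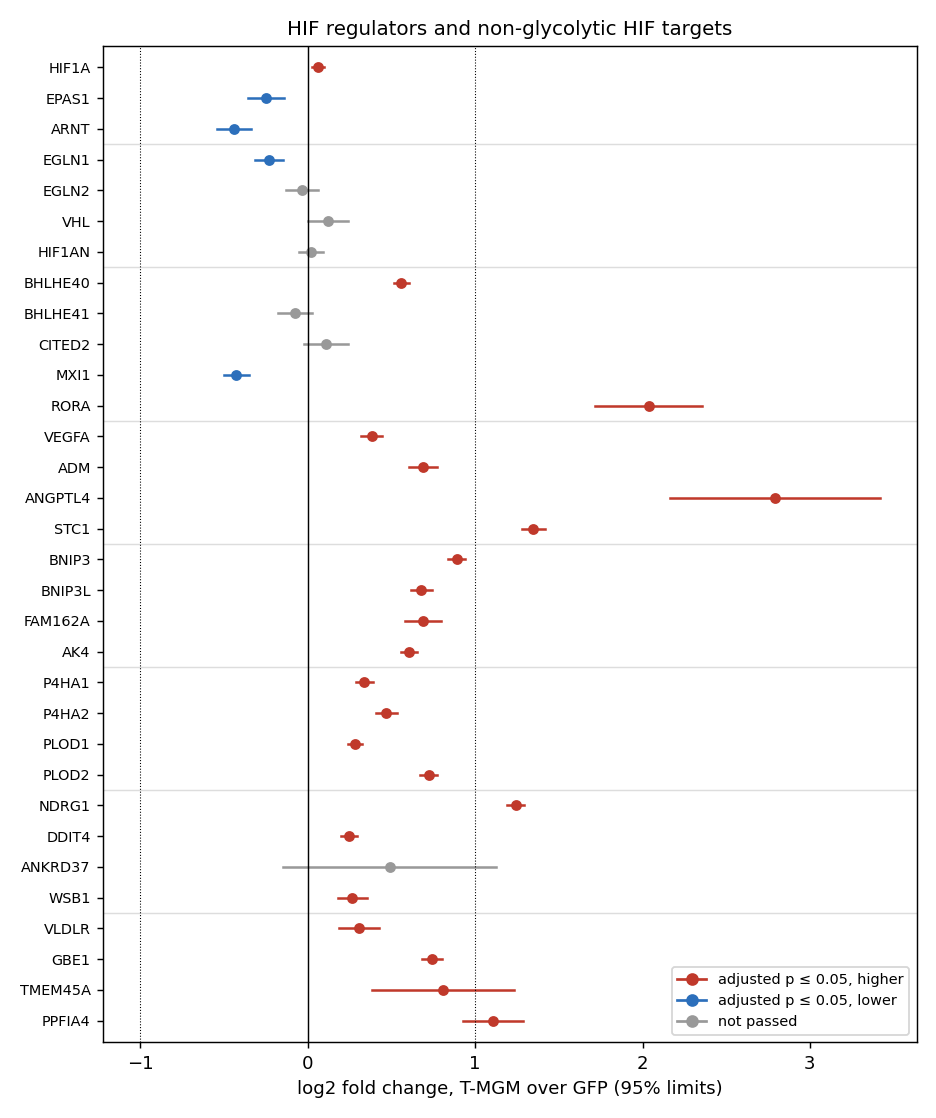
Log2 fold change of libraries labelled T-MGM over GFP (points) with 95% limits (lines) for the 32 genes averaging 50 or more normalized counts, in blocks by role from HIF subunits at the top to other targets at the bottom. Red genes were higher and blue genes lower at an adjusted p of at most 0.05, grey genes did not pass, and dotted lines mark a 2-fold change; the targets lie mostly to the right of 0, and the subunits and control genes between -0.44 and 0.12.

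The subunits moved in different directions and by little. HIF1A (ENSG00000100644.17; chromosome 14, 61695513 to 61748259, GRCh38), the oxygen-labile α subunit, had 11838, 11731 and 11942 normalized counts with GFP against 12211, 12454 and 12363 in the T-MGM-labelled libraries. The groups did not overlap, but the difference was only 1.04-fold (log2 fold change 0.06, SE 0.02; adjusted p = 0.00347), and it lost the test when libraries were scaled by total counts (log2 0.01, adjusted p = 0.823). The value turned negative in TPM, as given below, and was larger after correction for GC content and length (log2 0.23, adjusted p = 8.88e-33), so its size depends on the processing. EPAS1, the α subunit of the second HIF, fell by 0.25 on the log2 scale (SE 0.05; adjusted p = 2.36e-05), with 1488, 1558 and 1391 normalized counts with GFP against 1269.9, 1190.3 and 1268 in the T-MGM-labelled libraries. ARNT, the partner of both, had 1529, 1557 and 1621 normalized counts with GFP against 1147, 1151 and 1167 in the T-MGM-labelled libraries. All 3 GFP values lay above all 3 values of the other group, and ARNT fell by 0.44 (SE 0.05; adjusted p = 5.26e-17).

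Within the oxygen-dependent control, EGLN1 passed as lower and the other 4 genes did not pass, where 19.2% of all genes tested were lower. That count is near the share over all genes and is no result about these genes as a group. EGLN1, the prolyl hydroxylase that limits HIF1A in most cells, had 2762, 2838 and 2629 normalized counts with GFP against 2462, 2209 and 2334 in the T-MGM-labelled libraries, and fell by 0.23 on the log2 scale (SE 0.04; adjusted p = 3.54e-07). EGLN2, a relative with the same reaction, had 1667, 1648 and 1533 normalized counts with GFP against 1570.1, 1583 and 1575 in the T-MGM-labelled libraries (log2 fold change -0.04, 95% limits -0.13 to 0.06; adjusted p = 0.625). The EGLN2 groups overlapped, and part of its exons belongs to the read-through gene RAB4B-EGLN2 on the same strand, so its count is uncertain. EGLN3, a prolyl hydroxylase that is itself induced by HIF, was scarce, with raw counts of 35, 66 and 51 with GFP against 50, 50 and 44 in the T-MGM-labelled libraries. Its log2 fold change was -0.45 with 95% limits of -1.04 to 0.14 (adjusted p = 0.261), so no change was detectable at this depth. VHL, the substrate receptor of the ubiquitin ligase, had 1215, 1174 and 1134 normalized counts with GFP against 1222, 1221 and 1384 in the T-MGM-labelled libraries (log2 fold change 0.12, SE 0.06; adjusted p = 0.101), and HIF1AN had 2847, 2778 and 2989 normalized counts with GFP against 2860.0, 2945 and 2934 in the T-MGM-labelled libraries (log2 0.02, 95% limits -0.05 to 0.09; adjusted p = 0.718). VHL libraries did not overlap although the gene did not pass, and those of HIF1AN did overlap.

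**Figure D2:**
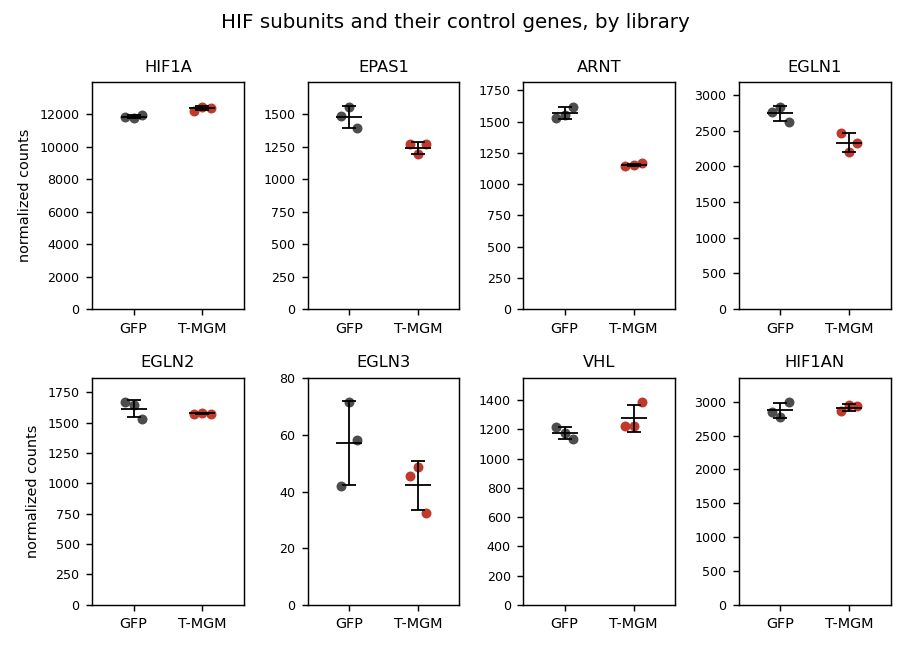
Normalized counts (vertical axes, from 0) of the 3 HIF subunits and 5 control genes in each library of the GFP group (grey) and the group labelled T-MGM (red); bars are the mean and SD of 3 libraries. EPAS1, ARNT and EGLN1 are lower in all 3 red libraries, HIF1A differs by a few percent, and EGLN3 reaches at most 71.5 normalized counts.

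The 5 genes that rose more than 2-fold were STC1, NDRG1, RORA, PPFIA4 and ANGPTL4. STC1 (ENSG00000159167.12; chromosome 8, 23841929 to 23854806) encodes stanniocalcin, a secreted glycoprotein of calcium and phosphate balance, and had 2072, 1914 and 2088 normalized counts with GFP against 5045, 5159 and 5234 in the T-MGM-labelled libraries. This was a 2.54-fold rise (log2 fold change 1.35, SE 0.04) with an adjusted p too small to be stored. NDRG1 (ENSG00000104419.14; chromosome 8, 133237175 to 133302022), a stress-responsive gene long used as a hypoxia marker, had 3523, 3424 and 3318 normalized counts with GFP against 8027, 8188 and 8049 in the T-MGM-labelled libraries, a rise of 2.36-fold (log2 1.24, SE 0.03), again with an adjusted p too small to be stored. Both genes were abundant, and the lowest library labelled T-MGM exceeded the highest GFP library by far more than the spread within either group.

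RORA, PPFIA4 and ANGPTL4 rose from lower counts. RORA (ENSG00000069667.16; chromosome 15, 60488284 to 61229302), an orphan nuclear receptor of circadian and metabolic genes, had 69.6, 78.0 and 66.2 normalized counts with GFP against 298, 301 and 279 in the T-MGM-labelled libraries (log2 fold change 2.04, SE 0.16; adjusted p = 2.08e-34). RORA-AS1 and other genes on the opposite strand overlap its exons. PPFIA4, which encodes the scaffold protein liprin-α4, had 395, 317 and 324 normalized counts with GFP against 716, 746 and 763 in the T-MGM-labelled libraries (log2 1.11, SE 0.09; adjusted p = 4.29e-32). Its 95% limits of 0.93 to 1.29 reach under a 2-fold change, and the value was 0.98 after correction for GC content and length. ANGPTL4, a secreted inhibitor of lipoprotein lipase, had the largest fold of the 37 genes among those that passed, at 6.92 (log2 2.79, SE 0.32; adjusted p = 2.67e-17). It rests on few reads, with raw counts of 12, 15 and 18 with GFP against 94, 129 and 193 in the T-MGM-labelled libraries, and relative to their mean its libraries labelled T-MGM were spread more widely than those of the other 4 genes.

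**Figure D3:**
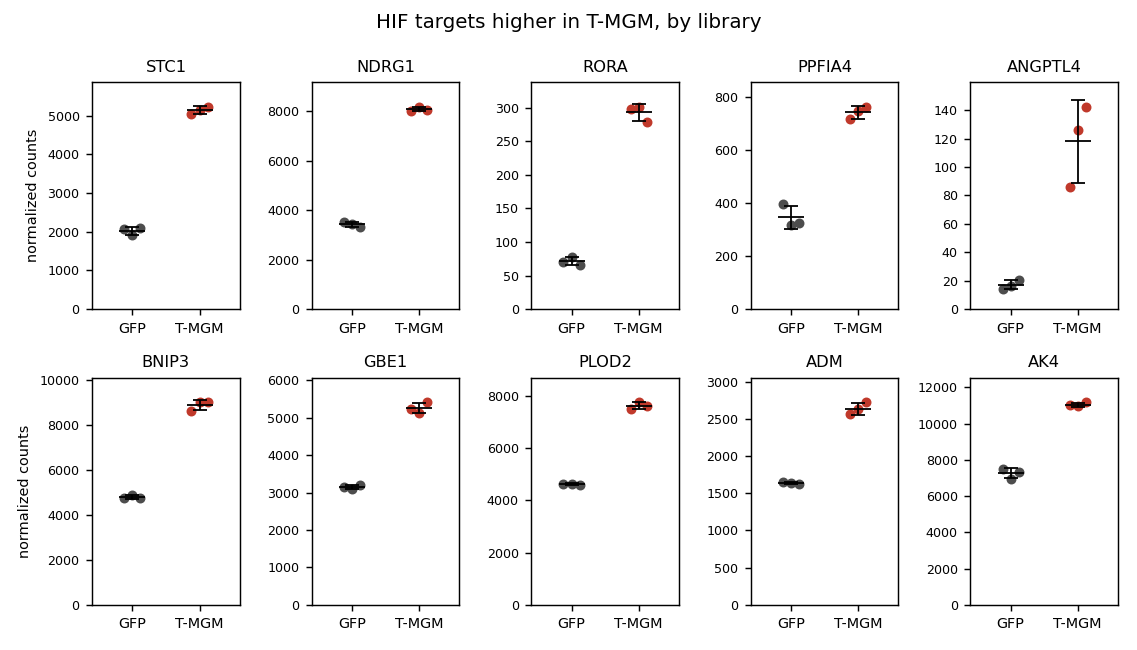
Normalized counts (vertical axes, from 0) of 10 HIF targets in each GFP library (grey) and each library labelled T-MGM (red), with mean and SD of 3 libraries as bars. The upper row holds the 5 genes that rose over 2-fold and the lower row 5 abundant genes that rose by less. Other genes that rose by less, such as BNIP3L and FAM162A, are not drawn. In all 10 panels the red libraries lie above the grey ones, but the genes were picked as higher, so this carries no test.

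The promoters of the 3 genes in this group that were found in RefSeq's table are shown with each ACGTG or GCGTG core, on either strand, in capitals, because these letters are the core to which HIF dimers bind. Each runs 5′ to 3′ over 300 bases, 250 before and 50 after the annotated start, on build GRCh38.p14. Those of RORA (chr15:60627481-60627780, minus strand) and ANGPTL4 (chr19:8363905-8364204, plus strand) use a RefSeq start inside the GENCODE gene, and that of PPFIA4 lies at chr1:203026241-203026540, plus strand.
RORA: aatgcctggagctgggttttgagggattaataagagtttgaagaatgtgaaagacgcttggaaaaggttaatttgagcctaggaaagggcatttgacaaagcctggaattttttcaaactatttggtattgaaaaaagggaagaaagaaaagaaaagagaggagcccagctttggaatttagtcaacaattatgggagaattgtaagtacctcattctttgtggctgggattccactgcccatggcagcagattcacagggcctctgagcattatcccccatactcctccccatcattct
PPFIA4: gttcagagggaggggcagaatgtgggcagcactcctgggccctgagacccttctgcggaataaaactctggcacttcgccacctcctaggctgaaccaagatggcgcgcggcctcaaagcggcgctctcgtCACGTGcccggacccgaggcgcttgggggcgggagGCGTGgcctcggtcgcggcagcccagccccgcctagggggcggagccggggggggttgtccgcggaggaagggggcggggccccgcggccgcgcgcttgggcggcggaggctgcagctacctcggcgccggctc
ANGPTL4: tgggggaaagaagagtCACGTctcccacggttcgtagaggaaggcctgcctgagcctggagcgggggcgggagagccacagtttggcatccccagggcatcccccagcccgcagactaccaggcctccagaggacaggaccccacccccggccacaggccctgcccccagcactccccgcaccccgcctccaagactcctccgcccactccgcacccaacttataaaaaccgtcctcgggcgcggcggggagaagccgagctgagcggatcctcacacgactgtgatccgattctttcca

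RORA had no match in this window, PPFIA4 had 3, from a palindromic CACGTG, which is read on both strands, and a GCGTG, and ANGPTL4 had 1. Of the 37 genes, 32 were in the promoter table (STC1, NDRG1, BNIP3L, VEGFA and VHL were not), with the start listed first for each gene. ACGTG, searched on both strands, was found in 18 of the 32 windows (56.2%), in 21.6% of all 27305 promoters and in 26% of the promoters of genes tested. Among genes that were higher the count was 11 of 18, and among those that were not it was 7 of 14. GCGTG was in 15 of 32 (46.9%) against 49.9% of promoters of genes tested, with 11 of 18 among the higher genes and 4 of 14 among the others. These genes were listed as HIF regulators or known HIF targets, so the shares describe the list and carry no test.

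The palindrome CACGTG, which contains ACGTG on both strands, was in 9 of the 32 windows (28.1%) against 9.94% of promoters of genes tested. Of these 9 genes, 5 were higher and 4 were not. Each such window also counts for ACGTG, which was itself more frequent in this list (56.2% against 26%). The share of CACGTG therefore describes a list of HIF genes and carries no test of MITF sites. The other MITF-type E-box searched, CATGTG, was in 2 windows (BHLHE40 and STC2; 6.25% against 7.2%), and TGCTGA, part of the site that MAF proteins read, was in 3 (9.38% against 13.1%). The windows of 30 bases around CACGTG in 3 genes that were higher and 4 that did not pass are given for comparison, with the palindrome in capitals. BHLHE40, also higher, has its match at the edge of the promoter window and PPFIA4 is printed above in full.
AK4, higher (chr1:65147447-65147476, plus strand): ggtcgcagggagCACGTGggccaggcaggc
BNIP3, higher (chr10:131982040-131982069, minus strand): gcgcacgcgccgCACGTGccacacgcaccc
WSB1, higher (chr17:27294044-27294073, plus strand): gggctgtgacgtCACGTGgccgcgcccctg
ANKRD37, not passed (chr4:185396667-185396696, plus strand): ggcgccgggctcCACGTGccagtgtttgtg
CITED2, not passed (chr6:139374784-139374813, minus strand): cagcctctgcagCACGTGccgcgggcggcg
BHLHE41, not passed (chr12:26125068-26125097, minus strand): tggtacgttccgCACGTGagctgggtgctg
EGLN2, not passed (chr19:40799130-40799159, plus strand): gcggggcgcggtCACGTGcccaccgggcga

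Among the other secreted factors, ADM and VEGFA rose. ADM, which encodes the vasodilator peptide adrenomedullin, had 1651, 1634 and 1629.9 normalized counts with GFP against 2562, 2629 and 2721 in the T-MGM-labelled libraries (log2 fold change 0.69, SE 0.04; adjusted p = 1.14e-58). VEGFA, the main endothelial growth factor, went from 3131 ± 27.6 to 4077 ± 87.9 normalized counts (SD, n = 3 each; log2 0.38, adjusted p = 1.02e-31). The 4 measured secreted genes were therefore all higher, from 0.38 for VEGFA to 2.79 for ANGPTL4, where 19.2% of all genes tested were. STC2, the paralog of STC1, had raw counts of 3, 0 and 2 with GFP against 0, 1 and 2 in the T-MGM-labelled libraries, at the floor of 3 counts, and no fold is given.

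All 4 mitochondrial genes rose, where 19.2% of all genes tested did. BNIP3, a mitophagy receptor of the outer mitochondrial membrane, had 4733, 4901 and 4729.9 normalized counts with GFP against 8629, 9004 and 9003 in the T-MGM-labelled libraries, a 1.85-fold rise (log2 0.89, SE 0.03; adjusted p = 1.25e-257). BNIP3L, its paralog with the same role, had 3154, 3236 and 3199 normalized counts with GFP against 4966, 5128 and 5251 in the T-MGM-labelled libraries (log2 0.68, SE 0.03; adjusted p = 3.57e-103). FAM162A, a mitochondrial protein induced by HIF1A, had 1129.6, 1182 and 1263 normalized counts with GFP against 1944, 1796 and 2012 in the T-MGM-labelled libraries (log2 0.69, SE 0.05; adjusted p = 1.66e-34). The groups of these 3 genes were well apart, and so were those of AK4, an adenylate kinase of the mitochondrial matrix, with 7498, 6949 and 7341 normalized counts with GFP against 11003, 10965 and 11170.2 in the T-MGM-labelled libraries (log2 0.61, SE 0.02; adjusted p = 1.86e-136).

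Of 5 collagen-modifying enzymes, 4 rose, where 19.2% of all genes tested did. PLOD2, the lysyl hydroxylase of collagen telopeptides, had 4643, 4641 and 4604 normalized counts with GFP against 7520.0, 7756 and 7634 in the T-MGM-labelled libraries (log2 fold change 0.72, SE 0.02; adjusted p = 5.74e-182). The prolyl hydroxylase subunits P4HA2 and P4HA1, which act on collagen and not on HIF, changed by 0.47 and 0.34 (adjusted p = 3.11e-49 and 3.61e-38), and PLOD1 by 0.28 (adjusted p = 6.7e-38). Groups did not overlap for any of the 4, where 23.4% of all genes tested were without overlap on the higher side. LOX, the secreted lysyl oxidase that cross-links collagen, was near the floor, with raw counts of 4, 4 and 3 with GFP against 4, 0 and 20 in the T-MGM-labelled libraries; 1 library labelled T-MGM held most of its reads.

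The transcriptional regulators did not move together. BHLHE40, a repressor of the circadian clock that hypoxia induces, had 5993, 6262 and 6079 normalized counts with GFP against 9082, 9059 and 8885 in the T-MGM-labelled libraries (log2 fold change 0.56, SE 0.02; adjusted p = 1.02e-123). BHLHE41, its paralog, had 5758, 5874 and 6096 normalized counts with GFP against 5332, 5949 and 5551 in the T-MGM-labelled libraries, with overlapping groups (log2 -0.08, 95% limits -0.18 to 0.03; adjusted p = 0.268). A single library decided that call: without replicate 2 of the T-MGM-labelled group, BHLHE41 passed as lower (log2 -0.12, adjusted p = 0.000768). MXI1, an antagonist of MYC that HIF1A raises in other cells, fell by 0.43 (SE 0.04; adjusted p = 4.11e-28), from 3273, 3052 and 3124 normalized counts in GFP to 2414, 2287 and 2316. CITED2, which competes with HIF1A for its coactivators, did not pass (log2 0.11, 95% limits -0.02 to 0.24; adjusted p = 0.2).

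Of the remaining targets, 5 rose by less than 2-fold. GBE1, the glycogen branching enzyme, had 3159.8, 3091 and 3191 normalized counts with GFP against 5244, 5135 and 5408 in the T-MGM-labelled libraries (log2 fold change 0.74, SE 0.03; adjusted p = 8.05e-125). TMEM45A, a transmembrane protein induced by hypoxia, had 66.0, 71.5 and 60.5 normalized counts with GFP against 124, 95.6 and 126 in the T-MGM-labelled libraries (log2 0.81, SE 0.22; adjusted p = 0.000783), without overlap of the groups but from small counts. VLDLR, a lipoprotein receptor, WSB1, a substrate receptor of a ubiquitin ligase, and DDIT4, an inhibitor of mTORC1, changed by 0.30, 0.27 and 0.25 (adjusted p = 2.63e-06, 1.71e-08 and 5.83e-22). The change in these 3 was small beside that of NDRG1, and none of them passed in the deposited TPM values. Neither did VEGFA and TMEM45A, with limma adjusted p = 0.0549 and 0.0977 on the log2(TPM + 1) scale.

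ANKRD37, a small ankyrin-repeat protein known as a direct HIF1A target, had 113, 178 and 105 normalized counts with GFP against 182, 139 and 234 in the T-MGM-labelled libraries; the groups overlapped (log2 fold change 0.49, 95% limits -0.15 to 1.13; adjusted p = 0.252). Here single libraries decided the call: ANKRD37 passed as higher without GFP replicate 2 (log2 0.77, adjusted p = 0.00282) and without replicate 2 of the group labelled T-MGM (log2 0.66, adjusted p = 0.00935). The carbonic anhydrases, which buffer the pH outside hypoxic cells, were scarce in both groups. CA9, often used as a tissue marker of HIF1A activity, had raw counts of 2, 0 and 2 with GFP against 1, 13 and 0 in the T-MGM-labelled libraries, and CA12 of 4, 4 and 2 with GFP against 1, 2 and 15 in the T-MGM-labelled libraries. In each, 1 library labelled T-MGM held most of the reads, with overlapping groups, and neither passed (adjusted p = 0.516 and 0.872).

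Levels were compared between genes in TPM, which is scaled for transcript length. In GFP libraries DDIT4 was the highest (96.0 ± 2.99 TPM in GFP and 103 ± 3.02 TPM in libraries labelled T-MGM; SD, n = 3 each), followed by PLOD1 at 66.6 TPM, BNIP3 at 63.8 and HIF1A at 63.6, where the GFP libraries of BNIP3 overlapped those of both neighbours in this order while PLOD1 stayed above HIF1A. HIF1A was thus far above EPAS1 (7.77 ± 0.601 TPM in GFP and 6.08 ± 0.829 TPM in libraries labelled T-MGM) and ARNT (8.78 ± 1.11 TPM in GFP and 5.88 ± 0.530 TPM in libraries labelled T-MGM), whose own ranges overlapped in both groups. Among hydroxylases the order in GFP was EGLN2 (18.7 TPM), HIF1AN (14.5), EGLN1 (10.3) and EGLN3 (0.603), each with a range apart from the next. BNIP3 reached 106 TPM in the libraries labelled T-MGM, about the level of DDIT4 there (103), with overlapping ranges. NDRG1 went from 30.1 to 64 TPM and passed above VEGFA, which stood at 31.3 and 34.2 TPM. ANGPTL4 and RORA, with the largest folds, remained low at 1.36 and 1.51 TPM. The sign of HIF1A depended on the scale, since in TPM it was lower in the libraries labelled T-MGM (limma, -0.08 on the log2(TPM + 1) scale, adjusted p = 0.052), where the median of all genes averaging 50 or more normalized counts was -0.13.

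**Figure D4:**
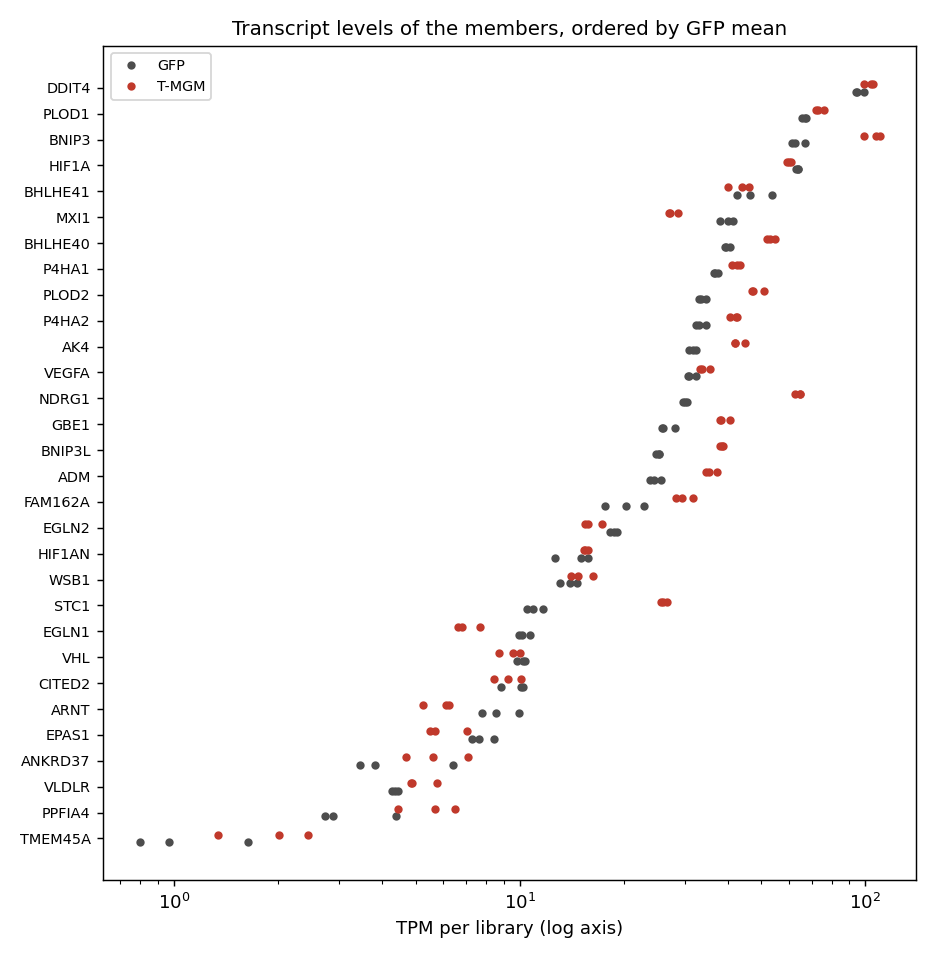
TPM of the 30 genes with a mean of at least 1 TPM in both groups, on a log axis, with 1 point per library (grey GFP, red labelled T-MGM) and genes ordered by their GFP mean. By GFP mean, DDIT4 is highest and TMEM45A lowest. NDRG1, STC1 and BNIP3 show red points well to the right of the grey ones, and MXI1, EGLN1 and ARNT to the left.

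Ratios of related genes within a library do not depend on how libraries are scaled, but corrections made gene by gene can change them. The log2 ratio of BHLHE40 to BHLHE41 counts was 0.06, 0.09 and -0.0041 with GFP against 0.77, 0.61 and 0.68 in the T-MGM-labelled libraries, a difference of 0.64. That of HIF1A to ARNT was 2.95, 2.91 and 2.88 with GFP against 3.41, 3.44 and 3.41 in the T-MGM-labelled libraries, and that of HIF1A to EPAS1 rose by 0.31. PLOD2 rose relative to PLOD1 by 0.44, BNIP3 relative to BNIP3L by 0.21 and P4HA2 relative to P4HA1 by 0.13, while EGLN1 to EGLN2 changed by -0.20. After correction for GC content and length, the log2 fold changes of BNIP3 (0.87) and BNIP3L (0.84) were closer to each other. So were those of P4HA2 (0.51) and P4HA1 (0.45), and of EGLN1 (-0.20) and EGLN2 (-0.13). PLOD2 (0.89) and PLOD1 (0.16) were further apart, as was HIF1A (0.23) from ARNT (-0.41) and EPAS1 (-0.30). The groups did not overlap for any of the 7 ratios, which were chosen after the values were seen; the exact permutation test (2-sided) gave p = 0.1 for each, also after Benjamini-Hochberg adjustment, the smallest value that 3 against 3 libraries allow.

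Median fold changes also differed between chromosomal regions, so each gene was set beside the other genes within 10 Mb that averaged 50 or more normalized counts. The fall of EGLN1 (log2 -0.23) was about that of the median of its 89 neighbours on chromosome 1 (-0.22). ARNT, also on chromosome 1, fell by 0.44 where its 204 neighbours had a median of -0.18, and VHL on chromosome 3 had 0.12 against 0.23 for 76 neighbours. EPAS1 and MXI1 differed from theirs, which had medians of -0.02 and -0.02. All 22 higher genes lay above the median of their neighbours, HIF1A by 0.05 and the median gene of the 22 by 0.62. The 22 were picked for a positive fold change, and the medians beside them were small. Their place above the medians was thus largely set in advance and carries no test. For BHLHE40 the neighbours were at 0.24 and for GBE1 at 0.16, the highest medians beside a gene that rose, and for PLOD1 they were at -0.24. The part of the region in any of these values was not tested.

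**Figure D5:**
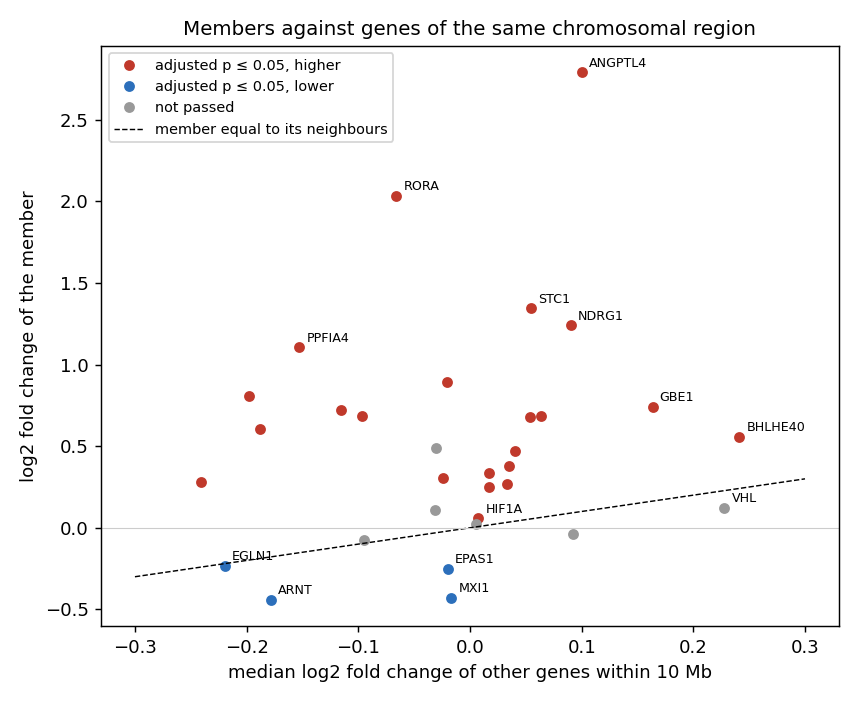
Log2 fold change of each gene averaging 50 or more normalized counts (vertical axis) against the median of other such genes within 10 Mb (horizontal axis, log2 fold change); the dashed line marks equal values. EGLN1 lies next to the line, ARNT, EPAS1 and MXI1 lie under it, and all red points (higher at an adjusted p of at most 0.05) lie above it. The colours follow the values on the vertical axis, so this split carries no test.

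The wider pathway was read from lists of further genes. Of 12 further parts of the HIF machinery, 11 were tested, 3 rose and 1 fell, with a median log2 fold change of 0.01, where 19.2% of all genes tested were higher and 19.2% lower. That count is near the share over all genes and is no result about these parts. RACK1, which promotes degradation of HIF1A, changed by 0.09 and the coactivator EP300 by 0.07 (adjusted p = 9.09e-12 and 4.77e-05). ELOB, a subunit of the VHL complex, changed by 0.15 (adjusted p = 0.000658). CUL2, the cullin of that complex, fell (log2 -0.14, adjusted p = 0.00917). These 3 rises depended on the scale, since mean TPM dropped from GFP to T-MGM. It was 1709 and 1633 for RACK1, 55.2 and 52.3 for EP300, and 103.4 and 102.2 for ELOB. For CUL2 mean TPM dropped too, from 10.7 to 8.56. HIF3A had at most 3 counts in any library, and it and CUL2 were named after their values were seen.

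Of 28 further hypoxia-induced genes outside glycolysis, 25 were tested, 15 rose and 4 fell, with a median of 0.30, against the same 19.2% higher and 19.2% lower over all genes. LOXL2, a lysyl oxidase-like enzyme of the matrix, changed by 1.24, P4HB, the disulfide isomerase that also serves as β subunit of collagen prolyl hydroxylase, by 0.28, and ERRFI1, a feedback inhibitor of EGFR, by 0.54 (adjusted p = 6.37e-177, 1.75e-131 and 4.73e-130). The 4 lower genes were KDM5B (-0.25), JMJD6 (-0.13), TFRC (-0.16) and PLIN2 (-0.45), named after their values were seen. On normalized counts all 20 glycolytic HIF targets rose, where 19.2% of all genes tested did, with a median of 0.38. PGK1, ALDOA and LDHA were at 0.57, 0.49 and 0.44, and none of the 20 passed a 2-fold change. Mean TPM instead dropped from GFP to T-MGM for SLC2A3 (50.1 to 46.9), HK2 (44.1 to 42.7) and ENO1 (1412 to 1382). It went up for the rest of the 20, and tests of these TPM values are not given here.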

How the data were processed

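The authors trimmed reads with cutadapt 1.8.1, aligned them to GRCh38 with STAR 2.7.7a and summed reads with a unique alignment over genes in featureCounts. These deposited counts were whole numbers without normalization. The authors also deposited TPM values from RSEM 1.3.0, rounded to 2 decimals. Tool versions are from the submitters' processing notes. The annotation release was not given in the sources used here. The labels name a library kit without and the study's methods a kit with strand information. Of the 37 genes, 16 share exon bases with a gene on the opposite strand, so their counts are uncertain. They are HIF1A, VHL, HIF1AN, BHLHE40, BHLHE41, MXI1, RORA, VEGFA, CA9, BNIP3L, FAM162A, P4HA1, P4HA2, LOX, ANKRD37 and VLDLR. HIF1A, EGLN1, EGLN2, RORA and NDRG1 share exon bases with another gene on the same strand, which leaves their counts uncertain with either kit. All 6 columns of each table were mapped to samples by title.

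Counts of all genes were fitted with DESeq2 1.42.0 in R 4.3.3, the tool of the study's methods. The settings chosen here were group as the only term, median-of-ratios size factors, 2-sided Wald test, no shrinkage, independent filtering at 0.05 and Benjamini-Hochberg adjustment. Of the 37 genes, 32 averaged 50 or more normalized counts. A gene with at most 3 counts in every library was treated as at the floor, which covers counting error only.

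The genes and lists were chosen with earlier results of these data known. Values per library were given for subunits, control genes, genes called over 2-fold, and genes without overlap and with an absolute log2 fold change of at least 0.5; of the further lists, up to 3 passing genes with the largest Wald statistic were named. Promoters were printed for genes called over 2-fold, outside chromosomes that were left out. Ratios and neighbours were examined after the data were seen. Positions are from GENCODE 44 (GRCh38), which holds 99.4% of the gene identifiers. Alternatives used edgeR 4.0.16, limma 3.58.1 on log2 TPM with a pseudocount of 1 or 0.1 and a minimum of 0.5 TPM in 3 libraries or none, other scalings, a minimum of 10 counts in 3 libraries, lowess correction for GC content and length (span 0.3), a replicate block, and each library left out. The steps were tested on simulated data.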

Additional observations from a re-analysis of the deposited data

How the results depend on the processing

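Of the 26 genes that passed, 18 kept direction and call under all 16 alternatives, among them 15 of the 22 higher genes and STC1, NDRG1, RORA, ANGPTL4, ARNT, EGLN1 and MXI1. The count of higher genes was 22 and of lower genes 4 under edgeR, TMM factors, the count filter, no independent filtering and the replicate block, 21 and 5 with total counts, 23 and 5 after GC content and length correction, 22 to 23 and 4 to 5 over the fits that left out 1 library, and 15 to 16 and 4 to 5 in TPM values. Over all genes tested, the share higher was 19.2% in the main fit and 10.5% to 23.5% in the fits named first. It was 14.8% with total counts, 18.3% after GC content and length correction and 17.4% to 19.1% without 1 library. In the TPM fits it was 8.44%, 8.39% and 2.91%, so fewer higher calls there were not particular to these genes. The replicate block changed no call of these genes. The deviations of same-numbered libraries correlated by -0.00665, -0.0579 and 0.0291, and those of differently numbered libraries by -0.089 to 0.0916. No shared deviation by number was seen, but these values cannot tell whether same-numbered libraries were handled together. The 5 genes over 2-fold became 4 after GC correction (PPFIA4 at 0.98) and 4 with a TPM pseudocount of 0.1, and 2 (STC1 and NDRG1) in both fits on log2(TPM + 1), with and without the filter. That pseudocount holds down low genes by construction, as in RORA (0.85) and ANGPTL4 (0.89 at the lowest).

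In the 3 TPM fits the median over genes averaging 50 or more normalized counts shifted from -0.01 to -0.13, -0.15 and -0.13. HIF1A reversed there (-0.079, -0.081 and -0.079), as did VHL (-0.094, -0.10 and -0.094) and CITED2 (-0.062, -0.068 and -0.062), all nearer to 0 than that median; VEGFA, DDIT4, WSB1, VLDLR and TMEM45A no longer passed in any of the 3, nor EPAS1 and PPFIA4 without the filter. EGLN2 passed as lower in the TPM fits and after GC correction (-0.13), where VHL passed as higher (0.15). That correction moved HIF1A from 0.06 to 0.23, PLOD1 from 0.28 to 0.16 and DDIT4 from 0.25 to 0.10, and log2(TPM + 1) moved EGLN1 from -0.23 to -0.49 and P4HA1 from 0.34 to 0.19. HIF1AN reversed with total counts (-0.032) and ranged from -0.0027 to 0.052 without 1 library, and BHLHE41 passed as lower with total counts. Near the floor, CA9, CA12 and LOX reversed in the block fit (-0.47, -0.37 and -0.39) and ranged from -1.84 to 2.13, -1.42 to 0.80 and -1.18 to 1.15 without 1 library; none of them is read as a change. The cause of these moves was not tested.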
